A study of Mus musculus with 2 samples.

Results

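The CC chemokine genes Ccl3, Ccl4, Ccl5, Ccl6 and Ccl9 and the receptor gene Ccr1 were followed through the cell classes of mouse epididymal white adipose tissue. These 6 genes were chosen by name, out of 27998 genes in the deposited tables, and all 6 were detected in both libraries. The tissue came from male wild-type C57BL/6J mice of 18 weeks, given either a high-fat diet (HFD) for 12 weeks or a normal chow diet (NCD). The stromal vascular fraction, which is what remains of digested fat once adipocytes are gone, was freed with type II collagenase and profiled by droplet-based single-cell RNA sequencing of transcript 3′ ends. There was 1 library per diet, and the labels do not say how many animals went into it, so diet, library and animal cannot be told apart and no test between diets was possible. The comparison asks which cells hold the transcripts of these ligands and of their receptor under each diet.

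Chemokines are small secreted proteins that guide leukocytes by binding G protein-coupled receptors. Ccl3, Ccl4 and Ccl5 are inflammatory attractants of monocytes, T cells and natural killer (NK) cells. Ccl6 and Ccl9 are chemokines of the mouse that myeloid cells produce. Ccr1 is a receptor of myeloid cells that binds Ccl3, Ccl5, Ccl6 and Ccl9. Obese fat accumulates macrophages, and chemokines are among the signals known to recruit them.

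The 5 ligand genes lie within 139 kb of chromosome 11 on build GRCm38 (mm10), and all 6 genes are protein coding in GENCODE vM21. Ccl5 occupies chr11:83525778-83530518, Ccl9 chr11:83572919-83578636, Ccl6 chr11:83587882-83593087 and Ccl3 chr11:83647844-83649355, all on the minus strand. Ccl4 lies at chr11:83662584-83664683 on the plus strand, and Ccr1 at chr9:123962124-123968692 on the minus strand. Start-site windows of 300 bases, 250 before and 50 after the annotated start, were available from RefSeq (GRCm38.p6) for 4 of the 6 genes, namely Ccl3, Ccl6, Ccl9 and Ccr1. The windows of Ccl6 and Ccl9 are printed because these neighbouring genes had nearly the same pattern over cell classes. Capitals mark the stretch in which the 2 windows align best.

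Ccl6, chr11:83593038-83593337, minus strand: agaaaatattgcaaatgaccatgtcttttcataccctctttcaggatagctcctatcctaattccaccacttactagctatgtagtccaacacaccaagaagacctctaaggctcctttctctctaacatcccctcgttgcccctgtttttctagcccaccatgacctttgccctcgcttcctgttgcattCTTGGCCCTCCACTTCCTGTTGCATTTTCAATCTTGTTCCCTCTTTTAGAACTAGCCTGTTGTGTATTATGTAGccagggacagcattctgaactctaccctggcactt

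Ccl9, chr11:83578587-83578886, minus strand: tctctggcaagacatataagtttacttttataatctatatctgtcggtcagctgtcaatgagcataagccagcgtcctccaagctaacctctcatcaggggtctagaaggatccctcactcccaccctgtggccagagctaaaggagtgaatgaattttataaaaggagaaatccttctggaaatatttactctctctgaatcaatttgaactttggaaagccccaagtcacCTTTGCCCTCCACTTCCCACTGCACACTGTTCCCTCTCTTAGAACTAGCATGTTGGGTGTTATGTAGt

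In the capital stretch, 58 of 67 aligned bases (86.6%) were identical, with an alignment score of 38. The best local alignment of any other pair among the 4 windows covered 11 to 19 bases and scored 9 to 12. The stretch ends 15 bases after the annotated start in Ccl6 and 49 bases after it in Ccl9. A search for 5 motifs found little that the windows shared. TATAAA, read on the coding strand, and TGANTCA, the AP-1 motif on both strands, occurred in the Ccl9 window alone among the 4. They occur in 8.32% and 7.81% of all 32851 windows of this length. The NF-kB motif was present in the Ccl9 and Ccr1 windows and in 8.46% of all windows. The PU.1 motif GAGGAAGT was in 3.20% of all windows and the C/EBP motif TTGCNNAA in 10.8%, both searched on both strands, and neither was in any of the 4. These matches are letters in a window and were not tied to binding.

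The HFD library held 6840 barcodes with a median of 2020 UMIs (unique molecular identifiers, each standing for 1 captured transcript) and 18623508 in all. The NCD library held 7365 barcodes with a median of 4230 and 33825656 in all. After filters, 6447 HFD and 7161 NCD cells were kept, and 64 barcodes occurred in both libraries. Free RNA, meaning transcripts of other cells caught in a droplet, differed between the libraries. Stromal markers in macrophages stood at 23.2% of their whole-library level in the HFD library and at 3.11% in the NCD library. Macrophage markers in adipose stem and progenitor cells stood at 31.5% in the HFD library and at 2.99% in the NCD library. Class names mean a profile like that class, from clusters made without the 6 genes. The macrophage markers stood at 224% of the library level in HFD and at 368% in NCD macrophages.

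Levels are UMIs of a gene per 1000000 UMIs (CPM) summed over the kept cells of a class in a library. Intervals are exact 95% intervals and cover counting error only, not the difference between animals or, for levels and folds, between cells. In macrophages, HFD cells had more Ccl3 and Ccl4 and less Ccl6, Ccl9 and Ccr1 than NCD cells. By a fold of at least 2, which is the size called here, 1 of the 6 genes was higher in HFD macrophages (Ccl5) and 2 were lower (Ccl6 and Ccr1). The Ccl5 fold was 12.2 in macrophages and 16.9 in progenitor cells. Of all 7429 genes with at least 10 CPM in macrophages of either library, 9.76% were higher and 10.5% lower by that rule, or 20.3% either way. The median log2 ratio of the 6 genes was 0.07, against −0.07 over all these genes.

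**Figure D1:**
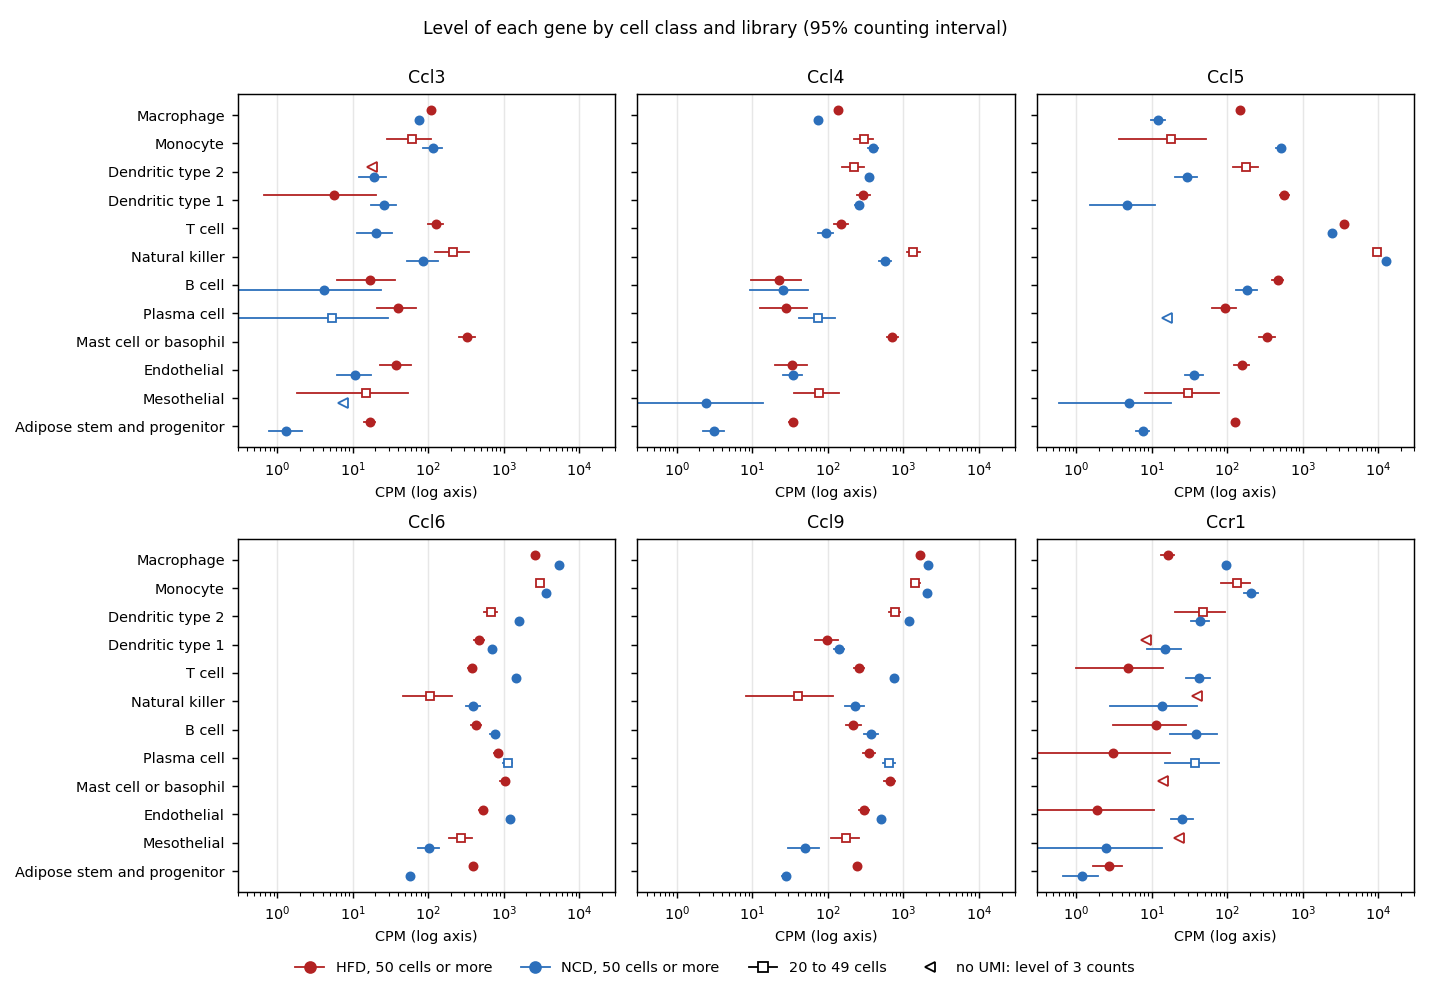
Level of each gene in 12 cell classes, in CPM on a log axis, with HFD (red) above NCD (blue) in each class and lines for the 95% counting interval. Open squares are classes of 20 to 49 cells and open triangles stand at the level of 3 counts where no UMI was seen. Of the classes plotted, Ccl5 is highest in natural killer cells and then T cells, whereas Ccl6 and Ccl9 are high in macrophages and monocytes of both libraries.

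Macrophages held 64.3% of the Ccl3 UMIs of kept HFD cells (95% interval 61.3 to 67.2) and 59.1% of those of NCD cells (56.0 to 62.1). For Ccl4 they held 48.9% in HFD and 24.7% in NCD. The macrophage share of Ccl6 was 74.2% in HFD and 65.1% in NCD, that of Ccl9 75.8% in HFD and 61.1% in NCD, and that of Ccr1 60.0% in HFD and 61.8% in NCD. With each cell classed by its own marker score, the order for Ccl6 turned, to 54.3% in HFD and 56.0% in NCD, and the Ccr1 shares were 35.3% in HFD and 52.2% in NCD. Ccl5 had another source, since T and NK cells together held 47.3% of its UMIs in the HFD library and 70.7% in the NCD library. Unnamed clusters held 2.05% of Ccl6 UMIs in the HFD library and 21.4% in the NCD library. The NCD part lay mostly in 2 clusters of 233 and 229 cells led by Lyz1, Retnla, Ear2 and Ccl24, genes of a myeloid type, with 9.83% and 10.8% of the Ccl6 UMIs. The cluster of 229 cells scored highest for macrophages, with 9 of their markers raised. It stayed unnamed because its 10 leading genes included 1 macrophage marker and 2 of another class.

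**Figure D2:**
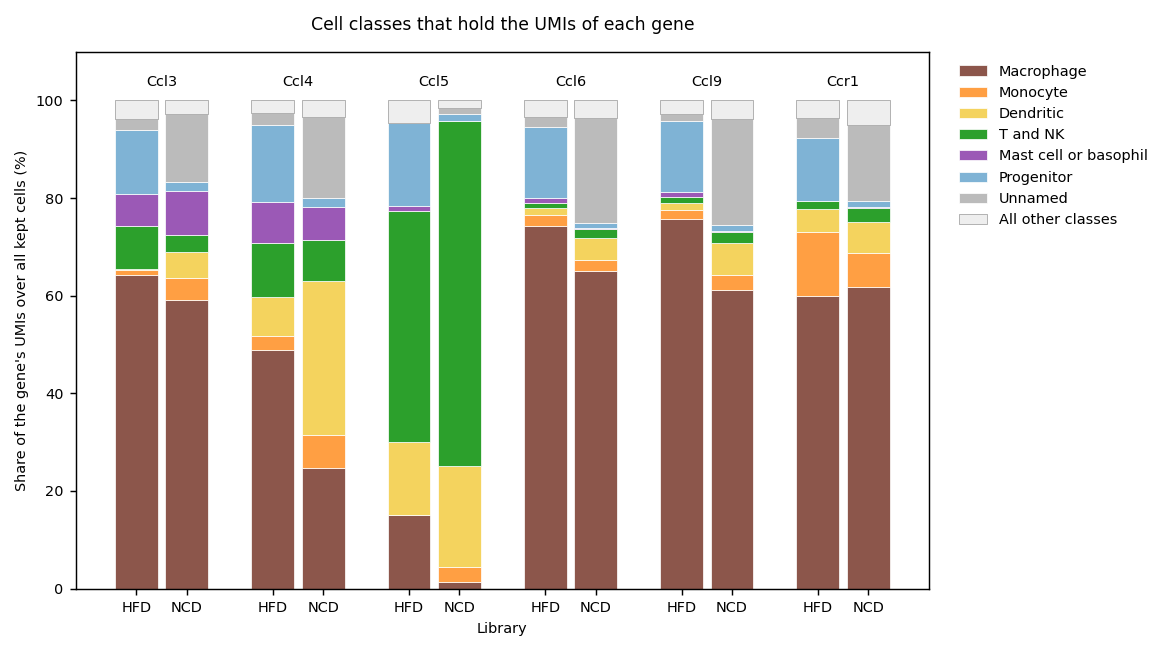
Share of the UMIs of each gene, in percent of all kept cells of a library, that lies in each group of cell classes, with the HFD bar left of the NCD bar. Macrophages hold 64.3% of Ccl3 UMIs in HFD and 59.1% in NCD, and T and NK cells hold 47.3% of Ccl5 UMIs in HFD and 70.7% in NCD.

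Ccl3 and Ccl4, inflammatory attractants of which Ccl3 binds Ccr1, were both higher in HFD macrophages. Ccl3 was at 108 CPM (100 to 116) in 1941 HFD macrophages and at 76.8 CPM (70.8 to 83.2) in 2048 NCD macrophages, a fold of 1.41 (1.26 to 1.57). Ccl4 was at 138 CPM (129 to 148) in HFD and at 75.4 CPM (69.4 to 81.7) in NCD macrophages, a fold of 1.84 (1.65 to 2.04). Both differences exceeded counting error. The Ccl4 interval reached past 2-fold, and with each cell classed by its own marker score its log2 ratio was 1.09. The UMIs came from a minority of macrophages. The top 5% of cells held 61.2% of Ccl3 UMIs in HFD and 73.7% in NCD macrophages. For Ccl4 they held 68.5% in HFD and 93.7% in NCD macrophages.

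The highest class levels of Ccl3 and Ccl4 lay outside macrophages and rested on few cells. In the 104 HFD mast cells or basophils, Ccl3 was at 330 CPM (257 to 417) and Ccl4 at 717 CPM (607 to 840). Only 6 of these cells had a Ccl3 UMI and 12 a Ccl4 UMI, and 1 cell held 65.7% of the Ccl3 UMIs and 55.3% of the Ccl4 UMIs. Without the highest cell the levels were 114 and 323 CPM. Stromal markers in this class stood at 101% of their library level. Of the 70 Ccl3 UMIs, 67 lay in a cluster of 38 cells led by the mast cell protease genes Cma1 and Cpa3. That cluster also had the basophil protease gene Mcpt8, at 300.2 CPM. In the NCD library the same class held 2 cells, and these carried 92 Ccl3 and 161 Ccl4 UMIs, or 9.12% and 6.80% of all NCD UMIs of these genes. These classes of under 50 cells, like those below, were described after their values were seen.

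Among T cells, Ccl3 was at 125 CPM (99.1 to 156) in 267 HFD cells and at 20.2 CPM (11.6 to 32.9) in 164 NCD cells, a fold of 6.19 (3.58 to 11.4). One HFD cell held 44.9% of these UMIs, and without the highest cell of each library the fold was 5.44. Of the 78 HFD UMIs, 64 lay in cluster 11.3, at 262 CPM (202 to 334), which held 118 HFD and 15 NCD cells and had stromal markers at 102% of their library level in HFD. HFD cells of clusters 11.2 and 11.4 had 74.2 CPM (38.3 to 130) and 10.4 CPM (1.26 to 37.7), against 33.2 CPM (18.2 to 55.7) and 19.3 CPM (2.34 to 69.9) in NCD cells of the same clusters. Ccl4 in T cells was at 149 CPM in HFD and 93.6 CPM in NCD cells, a fold of 1.60 (1.16 to 2.20). In NK cells Ccl4 was at 1361 CPM (1110 to 1652) in 24 HFD cells and at 578 CPM (482 to 687) in 64 NCD cells. Here 1 HFD cell held 59.8% of the UMIs, and without the highest cell of each library the levels were 616 CPM in HFD and 518 CPM in NCD. Of 6 genes tested in T cells, 1 was higher and 3 lower by 2-fold, against 9.08% and 15.3% of 8071 genes. The 3 lower genes were Ccl6, Ccl9 and Ccr1. Of their NCD T cell UMIs, 1101 of 1140, 579 of 588 and 24 of 33 lay in cluster 11.2. Its 58 NCD cells had a median of 6317 UMIs, against 3362.5 over all NCD T cells. In B cells 2 genes were higher and 1 lower, against 13.3% and 13.8% of 7512 genes. Of these, Ccl3 rested on 6 HFD and 1 NCD UMIs and Ccr1 on 4 and 9, and both fold intervals included 1. In endothelial cells 2 were higher and 2 lower, against 8.32% and 11.7% of 8650 genes. The 2 higher were Ccl3, with 20 HFD and 16 NCD UMIs, and Ccl5, with 82 HFD and 54 NCD UMIs. Stromal markers stood at 63.5% of their library level in HFD and 6.70% in NCD endothelial cells. With free RNA subtracted both directions turned. Ccl3 was then at 0.603 CPM in HFD and 9.44 CPM in NCD, and Ccl5 at 0 CPM in HFD and 24.8 CPM in NCD. The 2 lower were Ccl6 and Ccr1, with 1678 of 1800 and 34 of 37 NCD UMIs in cluster 13.2. Macrophage markers in NCD cells of that cluster stood at 175% of their library level.

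Myeloid cells other than macrophages also held Ccl4. Type 1 dendritic cells, which present antigen to cytotoxic T cells, had 297 CPM (243 to 359) in 103 HFD cells and 263 CPM (233 to 296) in 140 NCD cells, which did not differ beyond counting error. In this class 1 of the 6 genes was higher and 2 were lower by 2-fold, against 9.9% and 12.2% of 6961 genes. Type 2 dendritic cells had 220 CPM (155 to 303) in 37 HFD cells and 353 CPM (322 to 387) in 208 NCD cells. Monocytes had 301 CPM (224 to 397) in 47 HFD cells and 400 CPM (340 to 467) in 98 NCD cells, and 1 NCD cell held 50.3% of the UMIs there. Without the highest cell of each library the monocyte fold was 1.08, against 0.754 with it. In progenitor cells Ccl4 was at 34.5 CPM in HFD, where free RNA was estimated to give 30.9 CPM, and at 3.11 CPM in NCD, where the estimate was 2.22 CPM. In order of level among NCD classes of at least 50 cells, NK cells, then monocytes and type 2 dendritic cells came first, and the last pair overlapped in their intervals.

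Ccl5, an attractant made by cytotoxic lymphocytes, was high in T and NK cells of both libraries. T cells had 3545 CPM (3398 to 3696) in HFD and 2421 CPM (2314 to 2532) in NCD, a fold of 1.46 (1.38 to 1.56). NK cells had 9515 CPM (8829 to 10239) in 24 HFD cells and 12629 CPM (12163 to 13108) in 64 NCD cells. Over T and NK cells together the levels were 4186 CPM (4036 to 4341) in 291 HFD cells and 4642 CPM (4511 to 4777) in 228 NCD cells, a log2 ratio of −0.15. NK cells, the higher class, were 24 of the 291 HFD cells and 64 of the 228 NCD cells. The direction of the joint ratio turned with a stricter cell filter, of at least 1000 genes and at most 10% mitochondrial share. The ratio was 0.25 there, over 59 HFD and 151 NCD cells clustered anew. It also turned with free RNA subtracted, where it was 0.47. Over all 291 HFD and 228 NCD cells, 1 of 6 genes was higher and 3 were lower by 2-fold, against 9.19% and 12.2% of 8039 genes.

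Within T cells, Ccl5 followed the Cd8 genes. The cluster with the most Cd8a and Cd8b1, at 981 CPM for the pair in HFD and 455 CPM in NCD, had 6866 CPM of Ccl5 (6500 to 7248) in 73 HFD cells and 6190 CPM (5719 to 6688) in 31 NCD cells. A cluster of 43 NCD cells with 8.55 CPM of the Cd8 pair had no Ccl5 UMI, which allows up to 25.6 CPM at 3 counts. Another T cell cluster, 11.2, had 1644 CPM of Ccl5 in 67 HFD cells and 2475 CPM in 58 NCD cells. The myeloid genes Ccl17 and Lyz1 were among its 10 leading genes, but no HFD T or NK cell had a Ccl17 UMI. Macrophage markers in this cluster stood at 79.4% of their library level in HFD and at 31.0% in NCD. Thinned to 1400 UMIs per cell, 49.1% of HFD T cells (42.9 to 55.2) and 27.4% of NCD T cells (20.8 to 34.9) had a Ccl5 UMI. The shares without thinning were 54.7% in HFD and 31.1% in NCD. These shares and the T cell fold of 1.46 compare different mixes of clusters. The cluster without a Ccl5 UMI in NCD held 43 of 164 NCD and 8 of 267 HFD cells. Cluster 11.3 held 118 HFD and 15 NCD cells. Ccl5 was lower in HFD within cluster 11.2, and intervals overlapped in the cluster with the most Cd8a and Cd8b1. Stromal markers stood at 49.2% of their library level in HFD and 16.2% in NCD T cells. The part of mix and free RNA was not tested.

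Migratory dendritic cells, which carry antigen to lymph nodes, were another strong source of Ccl5, at 8817 CPM (8171 to 9501) in 26 HFD cells and 9106 CPM (8621 to 9611) in 25 NCD cells. They held 11.2% of all Ccl5 UMIs in the HFD library and 19.9% in the NCD library, with a UMI in 23 of 26 HFD and 20 of 25 NCD cells. One NCD cell held 50.6% of the NCD UMIs, and without the highest cell the levels were 7666 CPM in HFD and 4655 CPM in NCD. In type 1 dendritic cells Ccl5 stood at 568 CPM in HFD and 4.70 CPM in NCD, but 1 HFD cell held 177 of the 203 HFD UMIs. Without the highest cell of each library the levels were 75.3 CPM in HFD and 1.90 CPM in NCD.

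In macrophages Ccl5 was at 147 CPM (138 to 157) in HFD and at 12.1 CPM (9.79 to 14.8) in NCD, a fold of 12.2 (9.84 to 15.2). The log2 ratio was 3.61, against 1.76 with the stricter cell filter and 2.85 in clusters with little free RNA. HFD progenitor cells had 128 CPM (120 to 136) and NCD progenitor cells 7.56 CPM (6.17 to 9.18), a fold of 16.9 (13.8 to 21.0). Free RNA alone was estimated to give 80.3 CPM in HFD and 6.29 CPM in NCD macrophages. Thinned to 1400 UMIs, 12.3% of HFD macrophages (10.9 to 13.9) and 10.5% of HFD progenitor cells (9.46 to 11.6) had a Ccl5 UMI. In NCD the shares were 1.17% of macrophages (0.752 to 1.74) and 1.01% of progenitor cells (0.672 to 1.46). The intervals of macrophage and progenitor shares overlapped in each library, whereas the CPM of macrophages lay above that of progenitor cells in each. With free RNA subtracted, 87.5 CPM remained in HFD and 6.01 CPM in NCD macrophages, a log2 ratio of 3.86, and 27.8 CPM in HFD and 1.57 CPM in NCD progenitor cells, a log2 ratio of 4.15. The top 5% of HFD macrophages held 67.0% of the class's Ccl5 UMIs. The free RNA estimate for macrophages rests on stromal markers alone. Genes of T and NK cells were also higher in HFD macrophages. Nkg7 was at 18.9 CPM in HFD and 2.19 CPM in NCD, and Ms4a4b at 15.6 and 2.71 CPM. Lat was at 7.47 CPM in HFD and 1.03 CPM in NCD, Cd3d at 11.8 and 1.55 CPM, and Cd3g at 8.10 and 0.902 CPM. The part of lymphocyte transcripts in the Ccl5 ratio was not tested.

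**Figure D3:**
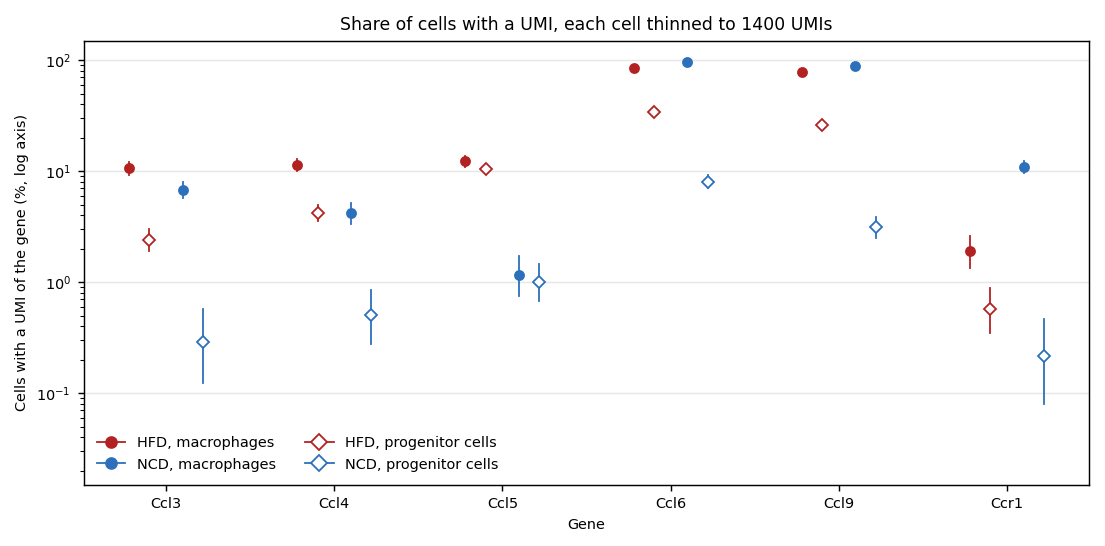
Percentage of cells with a UMI of each gene, on a log axis, after every cell was thinned to 1400 UMIs, in macrophages (circles) and progenitor cells (open diamonds), HFD (red) left of NCD (blue), with 95% exact intervals. For Ccl5 the macrophage and progenitor shares overlap in each library, at 12.3% and 10.5% in HFD, whereas for Ccl6 macrophages reach 84.7% in HFD and 96.1% in NCD.

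Ccl6 and Ccl9, the mouse myeloid chemokines, were lower in HFD than in NCD macrophages, Ccl6 more so than Ccl9. Ccl6 was at 2604 CPM (2564 to 2644) in HFD and at 5398 CPM (5347 to 5450) in NCD macrophages, 2.07-fold lower in HFD (2.04 to 2.11). Ccl9 was at 1663 CPM (1632 to 1695) in HFD and at 2132 CPM (2100 to 2165) in NCD macrophages, 1.28-fold lower in HFD (1.25 to 1.31). With free RNA subtracted, the Ccl6 levels were 3015 CPM in HFD and 5508 CPM in NCD, 1.83-fold lower in HFD, and the Ccl9 levels were 1930 CPM in HFD and 2174 CPM in NCD. The Ccl6 difference thus fell short of 2-fold with free RNA subtracted, and also with called doublets kept (log2 ratio −0.97) and in clusters with little free RNA (−0.98). Thinned to 1400 UMIs, 84.7% of HFD macrophages (83.0 to 86.3) and 96.1% of NCD macrophages (95.2 to 96.9) had a Ccl6 UMI. The Ccl9 shares were 77.7% in HFD (75.8 to 79.5) and 88.9% in NCD (87.4 to 90.2).

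Monocytes had levels near those of macrophages. Ccl6 was at 3015 CPM (2756 to 3291) in 47 HFD and 3611 CPM (3427 to 3803) in 98 NCD monocytes, and Ccl9 was at 1453 CPM (1275 to 1648) in HFD and 2078 CPM (1939 to 2225) in NCD monocytes. Type 2 dendritic cells had 672 CPM of Ccl6 in HFD and 1601 CPM in NCD, and 767 CPM of Ccl9 in HFD and 1198 CPM in NCD. Of their 2104 NCD Ccl6 UMIs, 1260 lay in the cluster with Birc5 and Top2a, at 2287 CPM. Macrophage markers in its NCD cells stood at 35.1% of their library level. In the cluster led by Ccl17 and Cd209a, Ccl6 was at 714 CPM (573 to 878) in HFD and 1105 CPM (1032 to 1182) in NCD. Ccl9 there was at 826 CPM (674 to 1002) in HFD and 1126 CPM (1052 to 1204) in NCD. Type 1 dendritic cells had 476 CPM of Ccl6 in HFD and 704 CPM in NCD. For all of these HFD was lower. In NCD, Ccl9 in macrophages and in monocytes did not differ beyond counting error, whereas Ccl6 was higher in macrophages.

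In progenitor cells the ratio ran the other way. The libraries lay mostly in different clusters here. Of 3319 HFD cells, 874 and 575 lay in clusters 3.0 and 7.2, where NCD had 3 and 2. Of 2774 NCD cells, 554 and 446 lay in clusters 8.0 and 8.1, where HFD had 4 and 10. Another progenitor cluster, with Mmp12 and Ms4a7 among its leading genes, held 436 HFD cells and no NCD cell. Macrophages were its second-best class, and macrophage markers there stood at 95.1% of their library level. It held 1189 of the 3218 HFD progenitor UMIs of Ccl6 and 676 of the 2021 of Ccl9. The part of this cluster in the ratios was not tested. Ccl6 was at 395 CPM (381 to 409) in HFD and 56.9 CPM (52.9 to 61.0) in NCD progenitor cells, a fold of 6.94, and Ccl9 at 248 CPM in HFD and 27.9 CPM in NCD, a fold of 8.90. Free RNA was estimated to give 392 CPM of Ccl6 in HFD and 59.1 CPM in NCD, and 246 CPM of Ccl9 in HFD and 24.8 CPM in NCD. In these cells 5 of 5 genes with at least 10 CPM in either library were at least 2-fold higher in HFD, against 5.92% of 8112 genes, and none was lower, against 5.14%. In HFD the estimate was closest to the measured level for Ccl6 and Ccl9. For Ccl5 it was 109 CPM in HFD, below the 128 CPM measured (120 to 136), and 6.04 CPM in NCD, against 7.56 CPM (6.17 to 9.18).

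**Figure D4:**
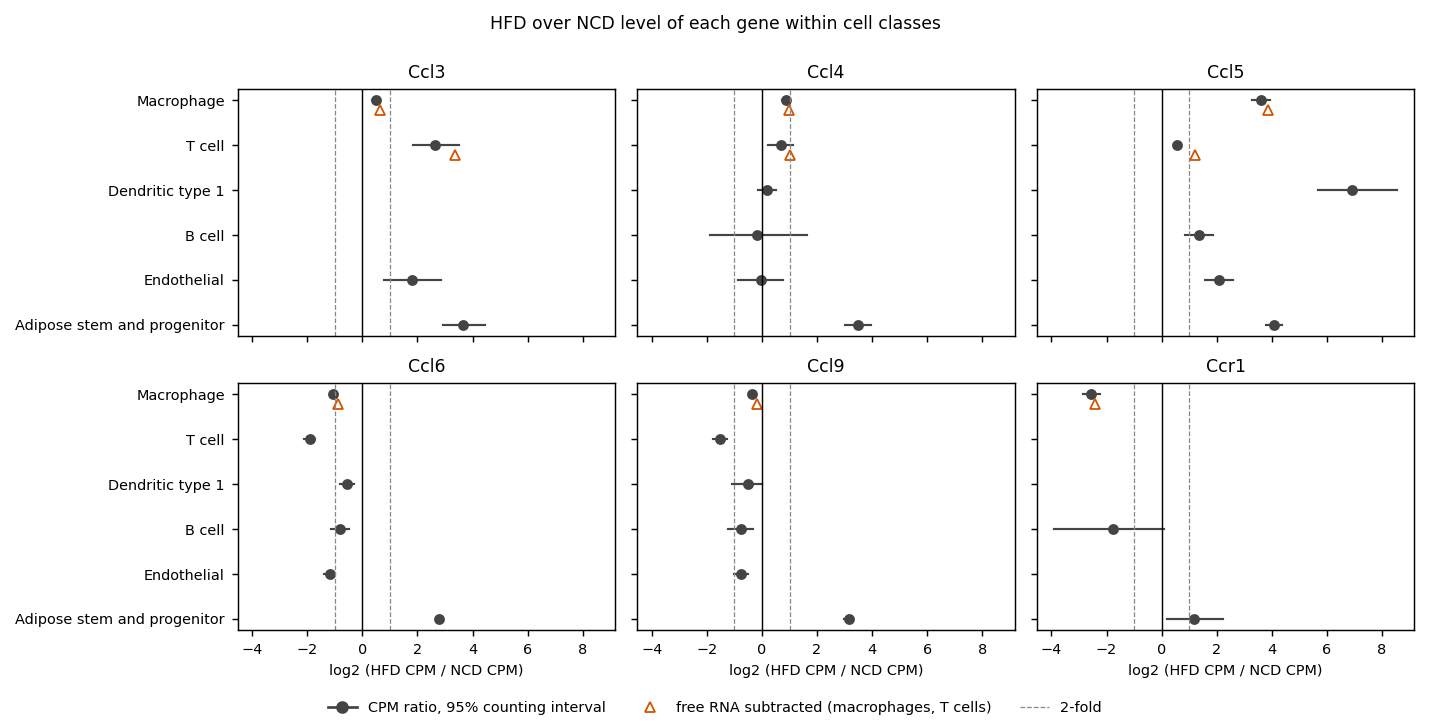
Log2 ratio of HFD over NCD CPM of each gene (dots, 95% counting intervals) in 6 cell classes, with dashed lines at 2-fold, leaving out classes with under 4 UMIs in either library. Triangles show macrophages and T cells after free RNA was subtracted, and values right of 0 are higher in HFD. Ccl6 and Ccl9 lie left of 0 in macrophages and right of 0 in progenitor cells.

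Ccr1, the receptor of Ccl3, Ccl5, Ccl6 and Ccl9, was highest in monocytes of both libraries among the named classes of at least 20 cells, and it was lower in HFD than in NCD macrophages. Macrophages had 16.2 CPM (13.2 to 19.7) in HFD, from 102 UMIs, and 94.7 CPM (88.0 to 102) in NCD, from 735 UMIs, 5.84-fold lower in HFD (4.75 to 7.26). Thinned to 1400 UMIs, 1.91% of HFD macrophages (1.35 to 2.62) and 10.9% of NCD macrophages (9.62 to 12.4) had a Ccr1 UMI. The progenitor background was 0.572% (0.345 to 0.893) in HFD and 0.216% (0.0794 to 0.470) in NCD. Monocytes had 133 CPM (83.1 to 201) in HFD and 209 CPM (166 to 259) in NCD, with overlapping intervals. Type 2 dendritic cells had 47.6 CPM (20.5 to 93.8) in HFD and 44.1 CPM (33.5 to 57.0) in NCD.

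Other HFD classes held few Ccr1 UMIs. HFD type 1 dendritic cells and mast cells or basophils had no UMI, which allows up to 8.40 and 14.1 CPM at 3 counts. HFD B cells, T cells, plasma cells and endothelial cells had 1 to 4 UMIs each. In NCD, T cells had 41.8 CPM (28.7 to 58.6) and B cells 38.1 CPM (17.4 to 72.2), which did not differ beyond counting error from type 2 dendritic cells, and endothelial cells had 25.2 CPM (17.7 to 34.7). The 2 unnamed NCD clusters led by Lyz1 and Retnla had 90.1 CPM (74.2 to 108) and 54.3 CPM (41.7 to 69.5), and held 9.50% and 5.30% of the NCD Ccr1 UMIs. Of the 33 NCD T cell UMIs, 24 lay in cluster 11.2. Macrophage markers stood at 58.1% in NCD endothelial cells.

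Most HFD and most NCD macrophages fell into different clusters, so the class ratios above compare cells of different clusters. The clustering made no correction for library, and the part of library, depth and free RNA in this split was not tested. Clusters 6.1 and 6.2, with Cd209f and Lyve1 among their leading genes as in 10.0 and 10.1, held 67 and 52 HFD and 1 and 0 NCD cells. Clusters 4.0, 4.1 and 4.2 held 403, 546 and 598 of the 1941 HFD macrophages, and their 10 leading genes included Trem2 and Atp6v0d2, with Mmp12 and Gpnmb in 4.1 and 4.2. Clusters 1.0, 1.1, 10.0 and 10.1 held 307, 389, 669 and 595 of the 2048 NCD macrophages and were led by genes of resident macrophages such as Cd163, Lyve1 and F13a1 or by Mgl2 and Retnla. All 10 lipid-associated markers were at least 2-fold higher in HFD macrophages, against 9.76% of all genes. All 10 resident markers were at least 2-fold lower, against 10.5%.

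Ccl6 was highest in the cluster with the most resident markers, 10.0, in both libraries. Ccr1 was highest there in NCD, and in cluster 6.1 in HFD. In cluster 10.0 Ccl6 was at 8589 CPM (8014 to 9195) in 24 HFD cells and at 7149 CPM (7042 to 7257) in 669 NCD cells, so that here HFD was the higher. Ccr1 in that cluster was at 62.2 CPM (22.8 to 135) in HFD, from 6 UMIs, and at 142 CPM (127 to 158) in NCD. The other HFD clusters with resident markers, 6.1 and 6.2, had 6186 CPM (5784 to 6608) and 3777 CPM (3422 to 4158) of Ccl6, and 91.3 CPM (48.6 to 156) and 36.4 CPM (9.92 to 93.2) of Ccr1. In the lipid-associated HFD clusters 4.0, 4.1 and 4.2, Ccl6 was at 2759, 2318 and 2114 CPM and Ccr1 at 8.28, 12.7 and 10.9 CPM. In NCD, Ccl6 ran from 3703 CPM in cluster 1.0 to 7149 CPM in cluster 10.0, and Ccr1 from 51.8 CPM in cluster 1.1 to 142 CPM in cluster 10.0. Stromal markers stood at 108% of their library level in cluster 6.2 and at 53.0% in cluster 4.2, and their part in these levels was not tested.

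Cells of a shared cluster could be set side by side in 2 further cases. In the cycling macrophages of cluster 15.2, led by Birc5 and Top2a, Ccl6 was at 1867 CPM (1708 to 2037) in 56 HFD cells and at 1576 CPM (1401 to 1767) in 34 NCD cells. Ccl9 there was at 1355 CPM (1220 to 1501) in HFD and 1085 CPM (941 to 1245) in NCD, and Ccl3 at 107 CPM (71.5 to 153) in HFD and 150 CPM (99.4 to 216) in NCD. In cluster 5.1, led by Sirpb1c and Ccr2, Ccl6 was at 2056 CPM (1817 to 2318) in 26 HFD cells and 3945 CPM (3621 to 4290) in 25 NCD cells. Ccr1 in that cluster was at 38.5 CPM (12.5 to 89.9) in HFD and 43.3 CPM (15.9 to 94.2) in NCD. The direction of the Ccl6 difference was therefore not the same in every shared cluster.

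Ccl3 and Ccl4 varied within macrophages along other lines. In HFD they were at 183 CPM (162 to 205) and 275 CPM (249 to 302) in cluster 4.0. In cluster 4.1, which had the most lipid-associated markers, they were at 79.3 CPM (67.6 to 92.5) and 53.9 CPM (44.3 to 64.9). In NCD they were at 163 CPM (142 to 187) and 189 CPM (166 to 215) in cluster 1.0, against 38.9 CPM (31.4 to 47.7) and 14.7 CPM (10.2 to 20.4) in cluster 10.0, the most resident one. The summed level of NF-kB response genes was 8283 CPM in cluster 4.0 and 5599 CPM in cluster 4.1 of the HFD library, and 8226 CPM in cluster 1.0 and 3963 CPM in cluster 10.0 of the NCD library. The match was not general, since NCD cells of cluster 5.1 had the highest sum, at 11041 CPM, with Ccl3 at 86.5 CPM, and HFD cells of cluster 15.2 had 5763 CPM with Ccl4 at 210 CPM. The early genes of tissue digestion summed to 14665 CPM in cluster 4.0 and 8520 CPM in cluster 4.1 of HFD, and to 19621 CPM in cluster 1.0 and 16464 CPM in cluster 10.0 of NCD. Ccl9 lay between 1266 and 2055 CPM in clusters 4.0 to 4.2 of HFD and between 1878 and 2302 CPM in clusters 1.0, 1.1, 10.0 and 10.1 of NCD.

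**Figure D5:**
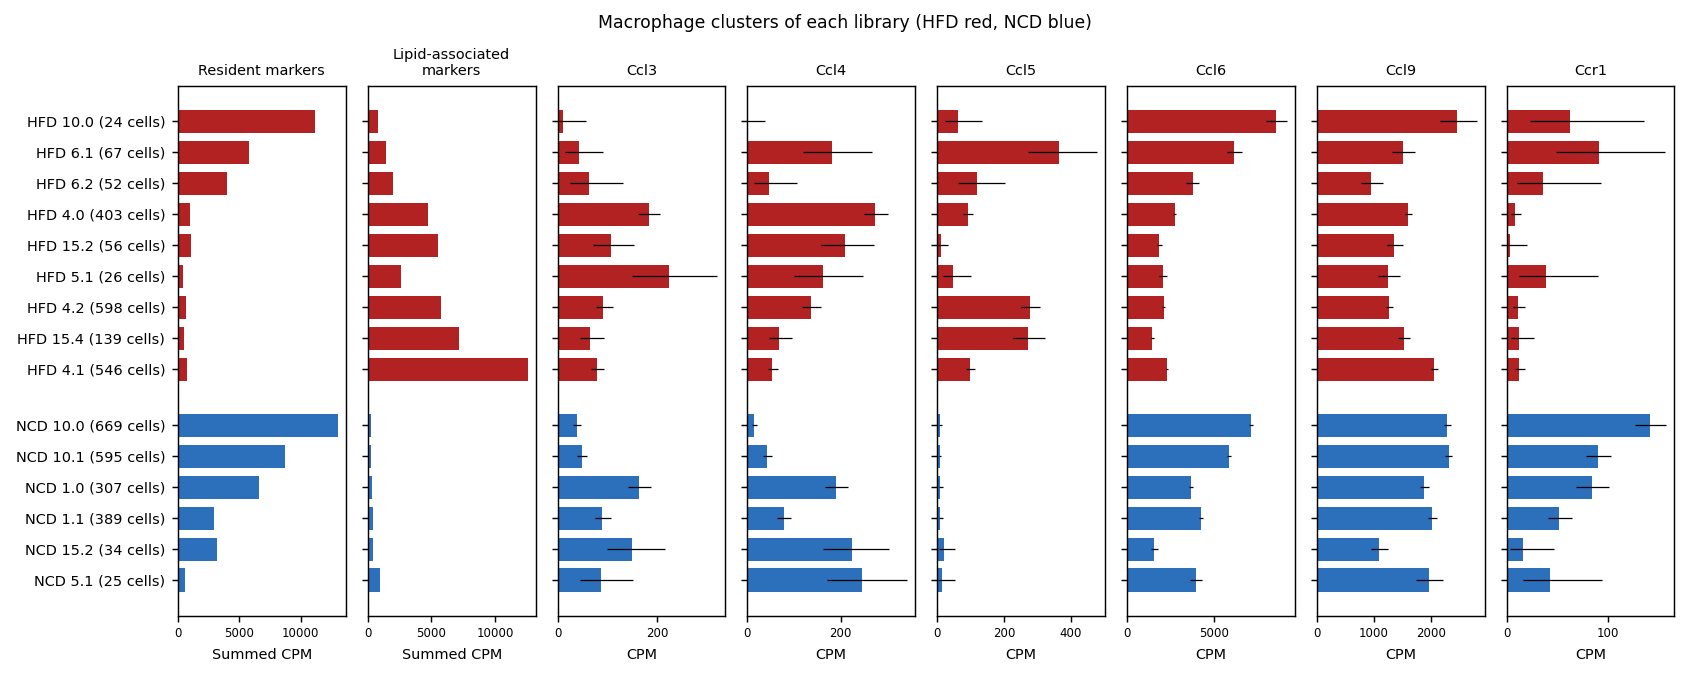
Macrophage clusters of at least 20 cells in each library, HFD (red) above NCD (blue), ordered within each library by lipid-associated over resident markers, with bars for the summed CPM of the marker lists and the CPM of each gene and black lines for 95% counting intervals. Ccl6 reaches 8589 CPM in HFD and 7149 CPM in NCD in cluster 10.0, where resident markers are highest, and Ccr1 stays at or below 12.7 CPM in the HFD clusters 4.0 to 4.2.

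Ligands were also seen together in single macrophages. Thinned to 1400 UMIs, 27.1% of the 207 HFD macrophages with a Ccl3 UMI also had a Ccl4 UMI (21.1 to 33.6), against 9.46% of the 1734 without one (8.12 to 10.9). In NCD the shares were 15.8% of the 139 with a Ccl3 UMI (10.2 to 23.0) and 3.35% of the 1909 without one (2.59 to 4.26). Ccl9 was seen in 80.8% of HFD macrophages with a Ccl6 UMI and in 60.3% of those without, and in 89.8% and 66.2% of NCD macrophages. A Ccl6 UMI was seen in 33 of 37 HFD and 221 of 224 NCD macrophages with a Ccr1 UMI. Among macrophages without a Ccr1 UMI, 84.6% of HFD and 95.8% of NCD cells had one, with intervals that overlapped those of cells with a Ccr1 UMI. The share in progenitor cells was 34.1% in HFD and 8.07% in NCD at the same thinning, with median depths of 1967 UMIs in HFD and 4727 in NCD progenitor cells, and of 2157 in HFD and 3674 in NCD macrophages.

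Likeness to each gene was ranked over 12 levels, the 6 classes with at least 50 cells in each library, as the Pearson correlation of log2(CPM + 1). These levels share libraries, depth and free RNA, so the values are descriptions. Ccl5 was most like Nkg7 (0.97), a granule gene of cytotoxic cells, then Ms4a4b, Lat, Cd3d and Cd3g (0.90 to 0.95). Ccl6 was most like Cfp (0.97), which encodes the complement factor properdin, then Ptafr, Wfdc17, Cd14 and Oser1 (0.95 to 0.96). Ccl9 was most like Clec4a3 (0.97), then Kcnk13, Lilr4b, Lilrb4a and Csf1r (0.96), the last encoding the receptor of macrophage colony-stimulating factor. Ccl6 and Ccl9 themselves correlated at 0.94. Ccr1 was most like the lectin gene Mgl2 (0.94), then Fcrls, Ccl12, Cd209a and Retnla (0.88 to 0.91). Ccl3 was most like Nipa2 (0.87), then Cd300a, Clec4a2, Lair1 and Fyb (0.83 to 0.85), and Ccl4 most like Slamf8 (0.95), then Shtn1, Cox7c, Cdk6 and Fam105a (0.93 to 0.94).

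Among the other CC receptors, Ccr2 was also lower in HFD macrophages, whereas Ccrl2 was higher. Of 13 CC chemokine receptor genes, 4 had at least 10 CPM in macrophages of either library. Of these 4, 1 was at least 2-fold higher in HFD and 2 were lower, against 9.76% and 10.5% of all genes. Ccrl2, an atypical receptor that binds chemerin, was at 138 CPM in HFD and 24.5 CPM in NCD, a fold of 5.63 (4.81 to 6.63). Ccr2, the receptor of monocyte attractants, was at 50.7 CPM in HFD and 156 CPM in NCD, 3.08-fold lower in HFD (2.72 to 3.49). Ccr3, the receptor of eosinophils, had 33 UMIs in HFD and 5 in NCD macrophages.

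The atypical receptors that remove or transport chemokines lay in stromal and endothelial cells. Ackr1 was at 89.0 CPM (65.4 to 118) in HFD and 3.40 CPM (1.10 to 7.93) in NCD endothelial cells. Endothelial cells of the libraries lay mostly in different clusters, since cluster 13.3, led by Ccl21a, held 142 of 219 HFD and 15 of 363 NCD cells, whereas clusters 13.1 and 13.2 held 32 and 9 HFD and 125 and 76 NCD cells. In progenitor cells Ackr1 was at 10.2 CPM in HFD and 24.4 CPM in NCD. Ackr2, a scavenger of inflammatory CC chemokines, was at 7.98 CPM (6.16 to 10.2) in HFD and 21.2 CPM (18.8 to 23.8) in NCD progenitor cells. Ackr4, a scavenger of homeostatic chemokines, was at 6.63 CPM (4.98 to 8.65) in HFD and 26.8 CPM (24.1 to 29.7) in NCD progenitor cells, and was a leading gene of cluster 17.1, with 8 HFD and 187 NCD cells.

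The other CC ligands of macrophages were mostly lower in HFD. Of 14 genes on that list, 12 had a single gene identifier and 6 reached 10 CPM in macrophages. Of these 6, 5 were at least 2-fold lower and 1 was higher, against 10.5% and 9.76% of all genes. Their median log2 ratio was −3.45, against −0.07 over all genes. Ccl12, Ccl7 and Ccl2, attractants of monocytes, were at 23.8, 86.3 and 133 CPM in HFD and at 619, 1507 and 903 CPM in NCD macrophages. Ccl24, an attractant of eosinophils, was at 55.0 CPM in HFD and 984 CPM in NCD. Among 24 genes of chemokine receptor signalling with at least 10 CPM, 3 were higher and 3 lower by 2-fold, close to the 9.76% and 10.5% of all genes. Rgs1, which shortens G protein signals, was at 689 CPM in HFD and 43.6 CPM in NCD macrophages, a fold of 15.8 (14.2 to 17.7), and Rgs2, of the same family, at 306 CPM in HFD and 98.3 CPM in NCD. Gnaq, a G protein subunit, was at 47.5 CPM in HFD and 84.0 CPM in NCD, and Adrbk1, a receptor kinase, at 43.1 CPM in HFD and 72.4 CPM in NCD. Both of these fell short of 2-fold.

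Genes that respond to NF-kB, a pathway known to induce Ccl3, Ccl4 and Ccl5, did not move one way in macrophages. Of 22 such genes with at least 10 CPM, 4 were at least 2-fold higher in HFD and 4 lower, against 9.76% and 10.5% of all genes. The neutrophil attractant Cxcl1 was at 510 CPM in HFD and 84.9 CPM in NCD macrophages, and Tnfaip2 at 97.7 CPM in HFD and 25.8 CPM in NCD. Ier3 was at 158 CPM in HFD and 696 CPM in NCD, and Nfkbiz at 136 CPM in HFD and 459 CPM in NCD. Of 20 early genes that tissue digestion can induce, 8 were at least 2-fold lower in HFD macrophages, against 10.5% of all genes. None of them was higher, against 9.76%. Egr1 was at 333 CPM in HFD and 1605 CPM in NCD. Ier2 was at 371 CPM in HFD and 933 CPM in NCD, Hspa1a at 34.3 CPM in HFD and 126 CPM in NCD, and Egr2 at 34.2 CPM in HFD and 83.0 CPM in NCD. Their part in the levels of Ccl3 and Ccl4 was not tested. Among 15 cytotoxic genes in T and NK cells, 1 was higher and 4 were lower by 2-fold in HFD, against 9.19% and 12.2% of 8039 genes. Gzma, a granzyme, was at 300 CPM in HFD and 607 CPM in NCD cells. Gzmb was at 44.5 CPM in HFD and 101 CPM in NCD. Id2, at 371 CPM in HFD and 702 CPM in NCD, and Gzmk, at 53.1 CPM in HFD and 26.7 CPM in NCD, fell short of 2-fold. NK cells were a larger part of the joint class in NCD.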

How the data were processed

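The values are UMI counts per gene and cell, deposited by the authors as 1 filtered matrix per diet. Cell Ranger, Seurat and the mm10 build are named per the submitters' processing notes, without versions or settings. The count matrices hold cells of at least 1401 UMIs in HFD and 1556 in NCD.

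The 6 genes and the gene lists were chosen with earlier results of these data known. A cell was kept if it had 500 genes or more, 1000 UMIs or more, and a mitochondrial share of no more than 20%. Doublets were scored with scrublet in scanpy 1.11.5, at an assumed rate of 5%. The threshold it set for HFD called 0 cells, so the top 5% of scores (339 cells) were removed there, against 183 in NCD by its own threshold. Both libraries were clustered together with 2000 variable genes, 30 principal components, 15 neighbours and Leiden resolution 1, then 0.3 within clusters of at least 40 cells, giving 70 clusters. The 6 genes were left out of the variable genes, and the profiles were not corrected for library. Clusters were named where at least 3 markers of a class reached 1.5-fold, and details of that rule were set after the first clusters were seen, so names are rebuilt and not the authors'.

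UMIs were summed by class and library, with exact Poisson intervals for levels, exact conditional binomial intervals for ratios and Clopper-Pearson intervals for shares, in scipy 1.17.1, numpy 2.4.6 and pandas 2.3.3 under Python 3.11.15. With 1 library per diet, no test between diets was run. Free RNA was estimated from 15 stromal and 7 macrophage markers found in cells that should lack them. For shares, each cell was thinned to 1400 UMIs, which left out no cell. Interval coverage and the free RNA estimate were tested on simulated data. Windows were aligned with Biopython 1.88, and figures drawn with matplotlib 3.10.9.

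Genes named beside the 6 are, for each, the 5 most alike by correlation among genes reaching 50 CPM in at least 1 level, and from each list the 4 with the largest absolute log2 ratio at 50 CPM or more in either library. Receptors of these ligands and atypical receptors are named in any case, except 1 item that is not reported here, and cluster genes and classes of under 50 cells were chosen after their values were seen.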

Additional observations from a re-analysis of the deposited data

Results flagged for a closer look

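The ratio of Ccl6 and of Ccl9 between diets ran in opposite directions in progenitor cells and in macrophages. For Ccl6 the log2 ratio of HFD over NCD was 2.80 in progenitor cells and −1.05 in macrophages. For Ccl9 it was 3.15 in progenitor cells and −0.36 in macrophages. The difference between the classes was not tested, since each diet had 1 library. In HFD, 1189 of 3218 progenitor UMIs of Ccl6 and 676 of 2021 of Ccl9 lay in a single cluster of 436 cells. Macrophage markers in that cluster stood at 95.1% of their library level, and NCD had no cell in it. Free RNA was estimated to give 392 CPM of Ccl6 in HFD progenitor cells, of 395 measured, and 59.1 CPM in NCD progenitor cells, of 56.9 measured. For Ccl9 the estimate was 246 CPM of 248 in HFD and 24.8 CPM of 27.9 in NCD.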

How the results depend on the processing

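With 1 library per diet, no replicate could be left out. No paired analysis was possible because each diet had a single library with no replicate number. Of 56 alternative log2 ratios of HFD over NCD, 36 stayed within the counting interval and 20 moved out of it. The direction of Ccl3, Ccl4, Ccl6, Ccl9, Ccr1 and, in macrophages, Ccl5 was the same under every alternative run, with Ccr1 between −2.81 and −2.41. With cells classed by their own marker score, the ratio was 0.76 for Ccl3, 1.09 for Ccl4 and 3.12 for Ccl5 in macrophages and −0.55 for Ccl5 in T and NK cells. In clusters with little free RNA, which held 1085 of 1941 HFD and 2048 of 2048 NCD macrophages, it was 0.66 for Ccl3, −0.98 for Ccl6, −0.23 for Ccl9 and 2.85 for Ccl5, and 0.0695 for Ccl5 in T and NK cells. Ccl6 thus fell short of 2-fold there and with called doublets kept. With free RNA subtracted, it was −0.87 for Ccl6, short of 2-fold too, −0.17 for Ccl9 and 0.47 for Ccl5 in T and NK cells. The stricter cell filter, of at least 1000 genes and at most 10% mitochondrial share, kept 2695 HFD and 6341 NCD cells. It gave −0.27 for Ccl9, 1.76 for Ccl5 in macrophages and 0.25 for Ccl5 in T and NK cells. Scaling by the median of ratios gave −1.002 for Ccl6 and −0.31 for Ccl9. Keeping called doublets gave −0.97 for Ccl6 and −0.29 for Ccl9, and letting the 6 genes into the clustering gave −0.39 for Ccl9. The cause of these shifts was not tested. Leaving out the cell with the most UMIs of a gene in each library was added after seeing the data, and none of the 7 ratios in macrophages or in T and NK cells moved out of its interval. In smaller classes it moved several folds: Ccl5 to 18.6 in B cells (from 2.55 with all cells), 12.0 in endothelial cells (4.23), 39.7 in type 1 dendritic cells (121) and 1.65 in migratory dendritic cells (0.968), and Ccl4 to 2.003 in B cells (0.886), 1.08 in monocytes (0.754) and 1.19 in NK cells (2.36). With no minimum level, 18.9% of genes in macrophages and 17.2% in T and NK cells were called higher, against 9.76% and 9.19%. Of 72 alternative shares of UMIs 48 moved, and of 12 shares of cells 10 moved with thinning to 2000 UMIs. The depth of the HFD library, at a median of 2020 UMIs per cell, limits what can be seen of Ccr1, with 170 UMIs in all kept cells.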
